A study of Mus musculus with 6 samples.

Results

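Natural killer (NK) cells were taken from single-cell RNA sequencing of CD45+ leukocytes sorted from mouse tumours. A cell was an NK cell if it held at least 2 unique molecular identifiers (UMIs, counted RNA molecules) of the receptor genes Ncr1, Klre1, Klra3 and Klra7 together, at most 1 UMI of Cd3d, Cd3e and Cd3g, fewer than 10 UMIs of C1qa, C1qb and C1qc, and none of Cd79a or Csf1r. The rule found 1903 NK cells among 26843 kept cells, 7.09% of them. The study, by its title, concerns MERTK inhibition and cyclophosphamide in triple negative breast cancer. Its 5 libraries used here are labelled MRX, CTX, Combined, ctxd18t and combod18t, and the labels do not spell these names out. MRX held 527 NK cells, CTX 447, Combined 751, ctxd18t 88 and combod18t 90. The protocol text describes day 7 mice that were treated 3 hours before harvest, and the last 2 labels carry d18, read here as day 18. Mouse strain, tumour line, the number of animals and any pooling were not given in the sources used here. The library labelled VC was not analysed here.

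Each label stands for 1 library, so no difference below has a replicate check and none was tested. The 95% intervals given cover counting error alone and leave out the spread between animals, tumours or sorts. The 4 comparisons were Combined against CTX, combod18t against ctxd18t, CTX against MRX and Combined against MRX. They share libraries and are not independent of each other. The d18 libraries differ from the other 3 in day and possibly in run, which cannot be told apart.

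NK cells are innate lymphocytes that kill stressed, infected or transformed cells without rearranged antigen receptors. They release perforin, which opens the target membrane, and granzymes, which are proteases that trigger cell death. They also secrete interferon gamma and the chemokines CCL3, CCL4, CCL5 and XCL1, the last of which draws in cross-presenting dendritic cells. Activating receptors such as NKp46 (Ncr1) and NKG2D (Klrk1) are balanced by inhibitory receptors, many of them Ly49 lectins (Klra genes) that bind MHC class I. In mice, maturation is followed from CD27 towards CD11b (Itgam) and KLRG1, under the transcription factors Eomes and T-bet (Tbx21).

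The selected cells carried the NK programme in genes that the rule did not use. Levels are summed UMIs of the NK cells of a library, scaled to a total of 1000000 (CPM). Gzma, granzyme A, was at 4164 CPM in MRX, 6894 in CTX and 6093 in Combined, then 5422 in ctxd18t and 3058 in combod18t. Nkg7, a cytotoxic granule protein, lay between 1186 and 1937 CPM, and Eomes between 334 and 404 CPM. Among T cell genes outside the rule, Trac was at most 11.3 CPM, while the rule itself kept Cd3e low. The 12 T cell marker genes outside the rule, of which 10 to 12 had counts, summed to 823 to 986 CPM in NK cells and 1082 to 2867 CPM in all other cells. Trbc1, whose constant region is also transcribed in NK cells, lay between 337 and 479 CPM. Of 10 marker genes of type 2 and type 3 innate lymphoid cells, 3 to 5 had counts in a library. They summed to 152 to 462 CPM in NK cells and 147 to 456 CPM in the other cells, and were no lower in NK cells than in the other cells in CTX and combod18t. Il13 and Il22, chosen after their values were seen, had no count in any library. S1pr5, a marker of circulating mature NK cells, was at most 2.63 CPM. Klra3 and Klra7, which the rule used, are described below without support being drawn from them.

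Cells on both sides of the threshold of 2 receptor UMIs were mixed in kind. Over the 5 libraries, the 155 cells with 1 receptor UMI that met the other criteria had 469 CPM of Gzma and 8697 CPM of the MHC class II chaperone Cd74. The 71 cells with 2 receptor UMIs had 2034 CPM of Gzma and 5804 CPM of Cd74. The 75 cells with 3 had 3243 CPM of Gzma and 1593 CPM of Cd74. In the d18 libraries Cd74 was higher in the cells with 2 receptor UMIs than in those with 1, at 11483 against 6065 CPM in ctxd18t, from 7 and 22 cells, and at 7427 against 4833 CPM in combod18t, from 5 and 15 cells. The cells just inside the threshold therefore still included some that carried antigen-presenting cell RNA.

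Among the NK cells, 70 held at least 20 UMIs of MHC class II genes or at least 2 UMIs of dendritic cell genes, and are called mixed cells below. They numbered 16 in MRX, 18 in CTX and 23 in Combined, then 9 in ctxd18t and 4 in combod18t. Their share was highest in ctxd18t, at 10.2%. Their median UMI count was between 12376 and 16543, against 7583 to 9358 in the other NK cells. The dendritic list of 12 genes, of which 10 to 12 had counts, summed to 942 to 7076 CPM in the NK cells, with the highest value in ctxd18t. Without mixed cells it summed to 194 to 332 CPM. The monocyte and macrophage list of 11 genes, of which 9 to 11 had counts, summed to 221 to 625 CPM with them and 153 to 174 CPM without them. The neutrophil list of 10 genes, of which 8 to 10 had counts, summed to 193 CPM in MRX, 130 in CTX and 29.95 in Combined, then 38.8 in ctxd18t and 333 in combod18t. Without mixed cells it was at 200 CPM in MRX, 24.8 in CTX and 25.6 in Combined, then 38.2 in ctxd18t and 354 in combod18t, so CTX fell to the level of Combined and combod18t stayed above ctxd18t. S100a9, a neutrophil gene, had the highest ratio of the d18 pair, and 1 cell held 95.6% of its counts in combod18t. The part of these cells in the d18 ratios was not tested. Values without them stand beside many of the results that they move, and whether they are doublets was not tested.

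Depth was similar across the libraries, with a median of 7998 to 9447 UMIs per NK cell. The summed NK profile rested on 4626627 UMIs in MRX, 3905600 in CTX and 6844478 in Combined, then 823886 in ctxd18t and 913888 in combod18t, so the d18 libraries set the widest intervals. The barcodes of CTX and combod18t had 34 in common, and those of Combined and ctxd18t 21, but none of these was an NK cell in both. Bases 8 and 9 of the barcodes were gt in both Combined and ctxd18t and ca in both CTX and combod18t. The protocol text assigns barcode sets to the earlier libraries and names none for the d18 libraries. The labels are used as given: were the 2 d18 labels exchanged, every difference of combod18t against ctxd18t would change sign, and this was not tested.

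NK cells made up a larger share of the sorted leukocytes in Combined than in any other of the 5 libraries. The share was 9.69% in MRX (95% exact interval 8.91 to 10.5), 5.02% in CTX (4.58 to 5.50) and 16.8% in Combined (15.7 to 17.9). In the d18 pair it was 2.19% for ctxd18t (1.76 to 2.70) and 2.24% for combod18t (1.81 to 2.75). Combined exceeded CTX by 11.8 percentage points, with an interval of 10.6 to 13.0. CTX lay 4.66 points below MRX, with the difference CTX minus MRX at -4.66 (interval -5.59 to -3.77). Combined minus MRX was 7.09 points (5.75 to 8.45). The 2 d18 libraries differed by 0.046 points, with an interval of -0.604 to 0.696. A share depends on every other cell type in the tube, so the number of NK cells per tumour is not given by it.

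Leaving T cells out of the denominator kept the order of the earlier libraries and opened a gap between the later ones. Among cells with fewer than 2 Cd3 UMIs, NK cells were 16.1% in MRX, 7.17% in CTX and 24.9% in Combined, then 3.77% in ctxd18t and 8.38% in combod18t. The d18 difference was then 4.61 points. T cells defined by Cd3 UMIs and no NK receptor UMI numbered 2343 in combod18t and 1007 in ctxd18t. The Cd3 criterion also set how many receptor-bearing cells were removed: 151 of 701 in MRX, 290 of 813 in CTX, 224 of 1032 in Combined, 287 of 394 in ctxd18t and 246 of 340 in combod18t. In the d18 libraries most cells with NK receptor UMIs therefore also held at least 2 Cd3 UMIs and were not counted as NK cells.

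**Figure D1:**
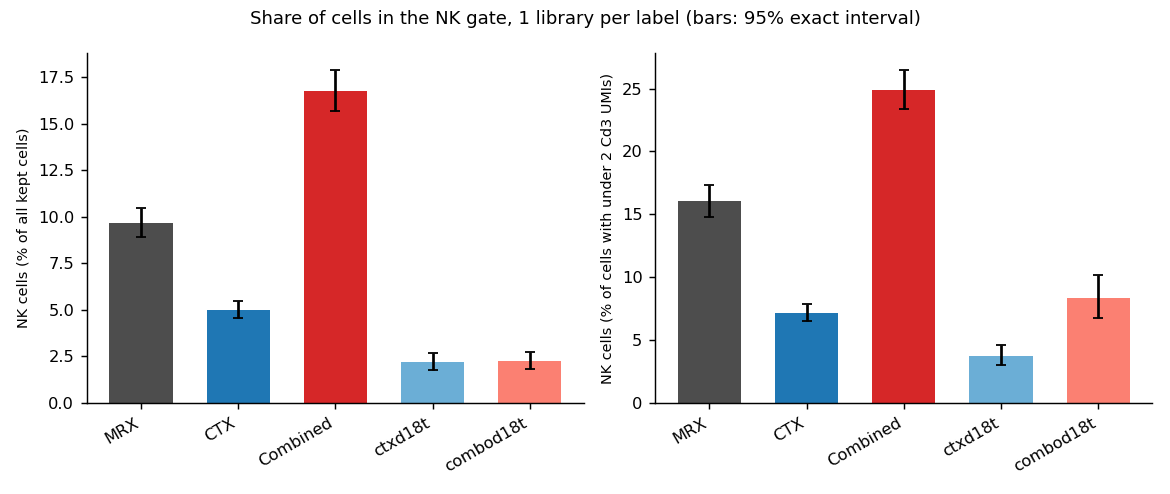
NK cells as a percentage of all kept cells (left) and of cells with fewer than 2 Cd3 UMIs (right) in the 5 libraries, with 1 bar per library and 95% exact binomial intervals. Combined is highest in both panels, at 16.8% and 24.9%, and the 2 d18 bars overlap only in the left panel.

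The cytotoxic genes Gzma, Gzmb and Prf1 were highest in CTX, and lower in combod18t than in ctxd18t. Gzmb, granzyme B, was at 1429 CPM in MRX, 2751 in CTX and 2093 in Combined, then 1850 in ctxd18t and 957 in combod18t. Prf1, perforin, was at 759 CPM in MRX, 1338 in CTX and 1148 in Combined, then 880 in ctxd18t and 545 in combod18t. Gzma, Gzmb and Prf1 thus had the same order of MRX, Combined and CTX from low to high. The 250 bases upstream of the start sites of Gzmb, Prf1 and Ifng are shown because these genes carry the effector results, with searched motifs in capitals and the rest in lower case. They come from RefSeq's mouse promoter table on build GRCm38.p6, each read 5′ to 3′ in the direction of transcription: Gzmb at chr14:56262335-56262584 on the minus strand, Prf1 at chr10:61297586-61297835 and Ifng at chr10:118440796-118441045, both on the plus strand.
Gzmb: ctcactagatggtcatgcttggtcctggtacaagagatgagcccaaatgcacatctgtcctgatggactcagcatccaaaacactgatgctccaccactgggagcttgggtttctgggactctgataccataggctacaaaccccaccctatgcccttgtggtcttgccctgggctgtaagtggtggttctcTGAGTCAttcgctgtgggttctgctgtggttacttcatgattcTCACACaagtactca
Prf1: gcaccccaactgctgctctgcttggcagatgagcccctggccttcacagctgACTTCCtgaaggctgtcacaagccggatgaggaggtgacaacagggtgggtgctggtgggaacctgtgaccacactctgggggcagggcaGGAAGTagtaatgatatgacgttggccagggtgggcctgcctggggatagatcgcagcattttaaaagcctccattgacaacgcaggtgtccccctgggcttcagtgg
Ifng: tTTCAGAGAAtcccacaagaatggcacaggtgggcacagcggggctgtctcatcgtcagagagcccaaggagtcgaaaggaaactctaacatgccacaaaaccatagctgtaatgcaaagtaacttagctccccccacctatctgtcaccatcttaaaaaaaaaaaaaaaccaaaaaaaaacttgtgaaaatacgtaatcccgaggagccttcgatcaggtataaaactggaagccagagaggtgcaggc
The search covered both strands for 4 motifs: TCACAC (T-box), TGANTCA (AP-1), TTCNNNGAA (STAT) and GGAAGT (ETS). In Gzmb the capitals mark TGAGTCA and TCACAC, in Prf1 the ETS motif as ACTTCC and GGAAGT, and in Ifng TTCAGAGAA. Of 32851 mouse promoter windows of that length, 12.3% held the T-box motif, 6.75% the AP-1 motif, 7.02% the STAT motif and 19.7% the ETS motif. The Gzma window held none of the 4. These matches describe letters only, and these files hold no measurement of binding there.

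Ratios are log2 ratios of CPM + 1, and a gene was called higher or lower at 1 or more, a 2-fold difference. Genes entered a comparison with at least 100 counts over both libraries and 50 CPM in 1 of them. A gene could thus enter through only the library where it was higher. A second threshold of 0.5 was added after the data were seen. In CTX against MRX, the log2 ratio was 0.73 for Gzma (interval 0.70 to 0.75), 0.94 for Gzmb (0.90 to 0.99) and 0.82 for Prf1 (0.75 to 0.88). All 5 expressed members of the 10-gene granzyme and perforin list were past 0.5 in that direction, beside 3.75% of the 3709 genes compared, and their median was 0.73 against -0.01 over all genes. Without mixed cells 4 of the 5 were. In Combined against MRX, 4 of 5 were past 0.5, beside 5.38% of 3792 genes, with a median of 0.55 against 0.05 over all genes.

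Combined and CTX were closer to each other in these genes. In Combined against CTX, the log2 ratio was -0.18 for Gzma (interval -0.20 to -0.16), -0.39 for Gzmb (-0.43 to -0.36) and -0.22 for Prf1 (-0.27 to -0.17). Of the 5 expressed members of the list, 4 lay below 0, beside 38.5% of 3742 genes, and 1 was past -0.5, beside 1.98% of them. That member was Gzmc, granzyme C, at 285 CPM in CTX and 171 in Combined, with a ratio of -0.73 (-0.86 to -0.62). Gzmc was carried by few cells: the single richest cell held 25.2% of its counts in CTX and 20.3% in Combined. Granzymes B to G lie in 1 cluster of closely related genes, so the split of reads between them is uncertain.

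In the d18 pair Gzma, Gzmb and Prf1 were lower in combod18t. The log2 ratio of combod18t against ctxd18t was -0.83 for Gzma (interval -0.89 to -0.76), -0.95 for Gzmb (-1.07 to -0.83) and -0.69 for Prf1 (-0.86 to -0.52). Without mixed cells, the ratios were -1.06, -1.18 and -0.92. All 4 expressed members of the list were past -0.5, beside 6.05% of 3506 genes, with a median of -0.80 against 0.06 over all genes. Gzmc, which did not reach the level for comparison there, lay above 0, at 0.90 (0.29 to 1.57). Thinned to 2000 UMIs per cell, 60.0% of ctxd18t and 33.3% of combod18t NK cells held a Gzmb UMI, beside 0.285% and 0.935% of B cells. Without thinning the shares were 65.9% and 48.9%. Thinning left out 3 cells of ctxd18t and none of combod18t. In the 15-gene list of granule machinery and death ligands, 8 of 10 expressed genes lay below 0, beside 42.8% of all genes, and none was past -0.5. Without mixed cells 2 were, Nkg7 at -0.52 and the serpin gene Serpinb6b at -0.50. Srgn, the proteoglycan that packs granules, was at 1682 and 1480 CPM in the 2 libraries.

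The granzyme inhibitor Serpinb9b was at 132 CPM in MRX, 338 in CTX and 274 in Combined, then 358 in ctxd18t and 229 in combod18t. It was called higher in CTX than in MRX, at a log2 ratio of 1.35 (interval 1.22 to 1.50), and in Combined than in MRX, at 1.04 (0.92 to 1.18). It was lowest in MRX and highest in ctxd18t. Stx11, a syntaxin needed for granule release, was called higher in Combined than in MRX, at 74.1 and 34.2 CPM and a ratio of 1.10 (0.86 to 1.38). With a pseudocount of 10 the Stx11 ratio was 0.93, so the call was lost.

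**Figure D2:**
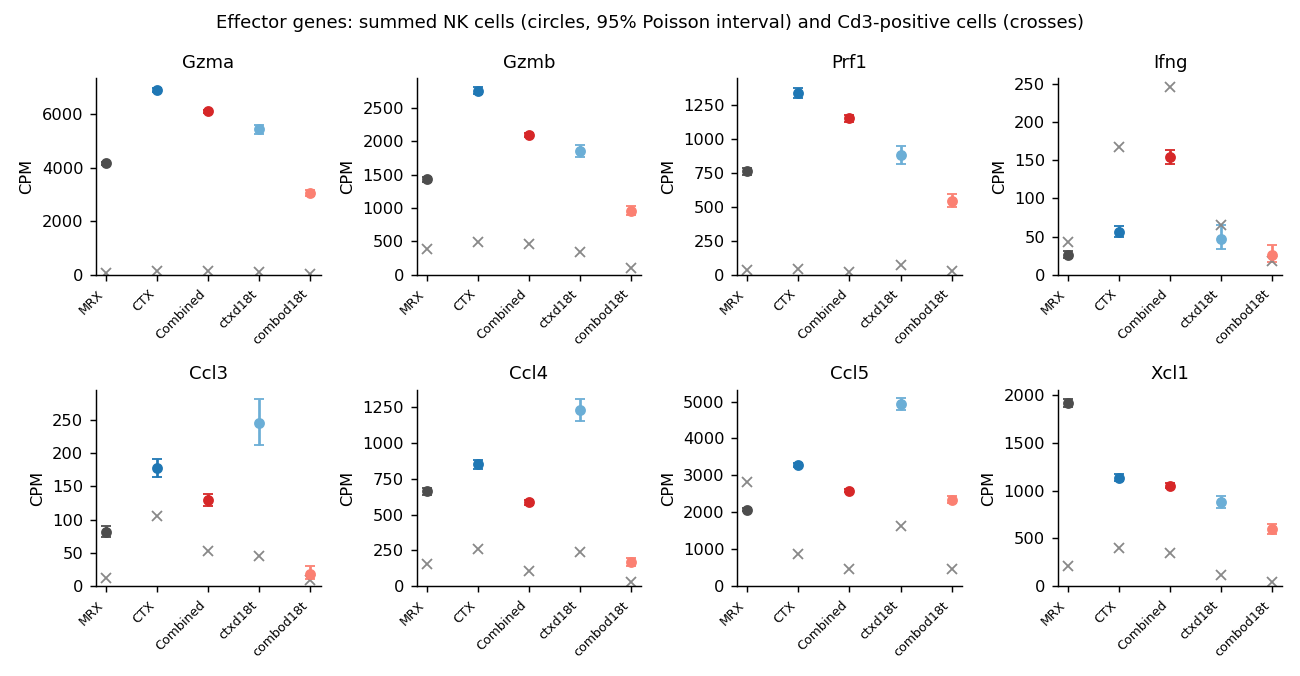
Levels in CPM of 8 effector genes in the summed NK cells of each library (circles with 95% exact Poisson intervals) and in Cd3-positive cells without NK receptor UMIs (grey crosses), each gene on its own axis from 0. Gzma, Gzmb and Prf1 are highest in CTX, Ifng in Combined, Ccl3, Ccl4 and Ccl5 in ctxd18t and Xcl1 in MRX.

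Ifng, which encodes interferon gamma, was the 1 gene called higher in Combined than in CTX, beside 0.0267% of 3742 genes called in that direction. It was at 26.2 CPM in MRX, 56.3 in CTX and 154 in Combined, then 47.3 in ctxd18t and 26.3 in combod18t, from 121, 220, 1055, 39 and 24 UMIs. The log2 ratio was 1.44 in Combined against CTX (interval 1.24 to 1.67), 1.08 in CTX against MRX (0.78 to 1.44) and -0.83 in combod18t against ctxd18t (-1.65 to -0.08). With 39 and 24 UMIs Ifng did not reach the level for comparison in the d18 pair, so that ratio is a description outside the counts. Its call in CTX against MRX was lost at a pseudocount of 10, at 0.88, and with cells thinned to 1000 UMIs, at 0.92. Combined was above the other 4 libraries, and the d18 interval reached almost to 0. One Combined cell held 21.9% of the Ifng UMIs there, and without it the level was 121 CPM.

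Cells with Ifng held more of its UMIs in Combined, while the thinned shares of such cells in CTX and Combined had overlapping intervals. Ifng was found in 69 of 447 CTX cells, which held 220 UMIs, and in 183 of 751 Combined cells, which held 1055. Thinned to 2000 UMIs, the shares of NK cells with Ifng were 4.94% in MRX (interval 3.25 to 7.16), 8.09% in CTX (5.73 to 11.0) and 10.6% in Combined (8.46 to 13.0), then 8.24% in ctxd18t and 4.44% in combod18t. Unthinned, they were 11.0%, 15.4%, 24.4%, 19.3% and 10.0%. B cells, at a median of 4050 to 8215 UMIs, held Ifng in at most 0.195% of thinned cells. Cd3-positive cells had Ifng at 42.6 CPM in MRX, 167 in CTX and 246 in Combined, then 65.4 in ctxd18t and 17.5 in combod18t, with the same highest and lowest libraries among the earlier 3. Whether the Combined to CTX ratio differs between the cell types was not tested.

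The chemokines Ccl3, Ccl4 and Ccl5, which recruit other leukocytes, had another order. Ccl4 was at 663 CPM in MRX, 851 in CTX and 586 in Combined, then 1231 in ctxd18t and 170 in combod18t. Ccl3 was at 81.3, 177, 129, 245 and 18.6 CPM in the same order, and Ccl5 at 2072, 3277, 2586, 4934 and 2338 CPM. All 3 were highest in ctxd18t, and for Ccl3 and Ccl4 combod18t was the lowest library. The log2 ratio of combod18t against ctxd18t was -3.65 for Ccl3 (interval -4.53 to -3.00), -2.85 for Ccl4 (-3.11 to -2.61) and -1.08 for Ccl5 (-1.15 to -1.001). These 3 were the called members among 7 expressed genes of the 16-gene cytokine and chemokine list, beside 1.4% of 3506 genes called lower. With cells of 1 receptor UMI added, the Ccl5 ratio was -0.90 and its call was lost. Ccl3 rested on 202 UMIs in ctxd18t and 17 in combod18t, and the richest ctxd18t cell held 25.7% of them. Cd3-positive cells showed log2 ratios of -2.20 for Ccl3 and -3.02 for Ccl4 between the same libraries.

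In the earlier libraries Ccl3 was called higher in CTX than in MRX, at 1.12 (interval 0.94 to 1.31), or 0.90 with cells thinned to 1000 UMIs. In that comparison 2 of 9 expressed cytokine and chemokine genes, Ifng and Ccl3, were called higher, beside 0.593% of 3709 genes. Ccl4 was lower in Combined than in CTX, at -0.54 (-0.60 to -0.47). Xcl1, which attracts cross-presenting dendritic cells, was at 1918 CPM in MRX, 1134 in CTX and 1052 in Combined, then 879 in ctxd18t and 596 in combod18t. MRX was the highest library for Xcl1 and the lowest of the earlier 3 for Gzmb. The ratio for Xcl1 was -0.76 in CTX against MRX (-0.81 to -0.71) and -0.87 in Combined against MRX (-0.91 to -0.82). Thinned, 71.7% of MRX, 49.7% of CTX and 50.2% of Combined NK cells held an Xcl1 UMI, beside at most 0.69% of B cells. Unthinned, the shares were 86.2%, 62.0% and 68.3%.

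Among the Ly49 receptors, Klra5 had the largest difference between Combined and the other earlier libraries. Klra5 was at 110 CPM in MRX, 113 in CTX and 49.5 in Combined, then 94.7 in ctxd18t and 91.9 in combod18t. Combined was the lowest library for Klra5. Its log2 ratios were -1.18 against CTX (interval -1.40 to -0.98) and -1.14 against MRX (-1.36 to -0.96). The 14-gene list of inhibitory Ly49 and lectin receptors holds 3 genes of the rule, Klra3, Klra7 and Klre1, which are left out of the counts here. Of 7 other expressed genes, 6 lay below 0 in Combined against CTX, beside 38.5% of genes, and Klra5 was the 1 called, beside 0.347% of 3742 genes. Against MRX, 4 of 6 lay below 0 in Combined, beside 43.5% of genes, and Klra5 was the 1 called, beside 0.818% of 3792 genes. With the NK cells thinned to 1000 UMIs, the Klra5 ratio was -0.57 against CTX and -0.63 against MRX, so both calls were lost. With the mean CPM of cells the ratio against MRX was -0.97. Klra genes are near-identical copies, so counts of single members are uncertain. The rule used Klra3 and Klra7, which were at 457 to 536 and 211 to 341 CPM in 4 libraries, and at 299 and 323 CPM in combod18t.

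Ly49 receptors are known to be expressed by subsets of NK cells in overlapping patterns. In cells thinned to 4000 UMIs, Klra3 without Klra7 was seen in 31.3% of MRX, 34.0% of CTX and 32.4% of Combined, then 24.7% of ctxd18t and 28.1% of combod18t NK cells. Both genes were seen together in 17.2%, 21.8%, 19.5%, 18.2% and 7.32% of cells in the same order. Since the rule summed these 2 genes with Ncr1 and Klre1, the shares describe the selected cells only. Klra9 was seen in 8.92% of MRX, 14.8% of CTX and 14.4% of Combined, then 3.90% of ctxd18t and 3.66% of combod18t cells. Klrc1, which encodes the inhibitory receptor NKG2A, was seen in 42.7% to 48.3% of cells of the earlier libraries and in 59.7% and 52.4% of the d18 cells.

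Activating receptors showed small differences between Combined and CTX. Klrk1 was at 351 CPM in MRX, 423 in CTX and 408 in Combined, then 636 in ctxd18t and 389 in combod18t. The 20-gene activating receptor and adaptor list holds Ncr1, a gene of the rule, which is left out of these counts. None of 16 other expressed genes was past 0.5 in either direction in Combined against CTX, beside 1.1% of genes above 0.5 and 1.98% below -0.5. Without mixed cells 1 was, Hcst at -0.51. Set against MRX, Combined had 2 of 15 past -0.5, beside 4.91% of genes: Klrb1f, an NKR-P1 receptor, at -0.75 and the adaptor Hcst at -0.74. In CTX against MRX 1 of 16 was, Crtam at -0.72, beside 3.83% of genes. In combod18t against ctxd18t, 13 of 14 lay below 0, beside 42.8% of genes, and 4 were past -0.5, or 6 without mixed cells, beside 6.05%. Slamf7 was the 1 called, at -1.22, beside 1.4% of genes, and was at -0.90 without mixed cells. Klrk1 had a ratio of -0.71 there (interval -0.91 to -0.51). Klrb1a, an NKR-P1 lectin, was at 109 CPM in MRX and 52.5 in Combined, a ratio of -1.04 (-1.26 to -0.86).

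Among checkpoint receptors, Ctla4 was called in 2 of the 4 comparisons. It was at 34.6 CPM in MRX, 84.0 in CTX and 47.3 in Combined, then 89.8 in ctxd18t and 29.5 in combod18t. Ctla4 was called higher in CTX than in MRX, at a log2 ratio of 1.26 (interval 1.00 to 1.56), and lower in combod18t than in ctxd18t, at -1.57 (-2.30 to -0.95). CTX and ctxd18t were thus the 2 highest libraries. Havcr2, TIM-3, was called lower in combod18t, at 51.4 against 109 CPM and a ratio of -1.07 (-1.63 to -0.56). Without mixed cells Havcr2 was at 2.34 CPM in combod18t and 15.3 in ctxd18t, so most of its UMIs lay in mixed cells. The ratio was then -2.28, at levels under that for comparison. With a pseudocount of 10 the Havcr2 ratio was -0.96, and with cells of 1 receptor UMI added -0.91, so the call was lost. Ctla4 and Havcr2 were the called members among 5 expressed genes of the 10-gene list, beside 1.4% of genes called lower. Pdcd1 and Lag3 stayed at or below 31.7 and 15.4 CPM in the 5 libraries, under the level for comparison.

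Late maturation genes lay above 0 in CTX against MRX, and 1 of them was called. In CTX against MRX, all 7 expressed genes of the 11-gene late maturation list lay above 0, beside 48% of genes, with a median of 0.69, or 0.51 without mixed cells. The list holds Gzmb, also on the granzyme list, and Zeb2, also a listed transcription factor, so its counts are not separate from those. Itgam and Ly6c2 reached 50 CPM in CTX and not in MRX, so they entered through the library where they were higher. Itgam was at 28.5 CPM in MRX and 51.2 in CTX, a log2 ratio of 0.82 (interval 0.52 to 1.17), and Klrg1 at 155 and 193 CPM, a ratio of 0.32 (0.17 to 0.47). Ly6c2, the called member beside 0.593% of genes called higher, was at 11.5 CPM in MRX, 51.2 in CTX and 45.7 in Combined. Its ratio in CTX against MRX was 2.07 (1.72 to 2.63), or 1.72 without mixed cells. Monocytes also express Ly6c2, and it was at 533 CPM in the other cells of CTX and 247 in those of MRX. The monocyte and macrophage list summed to 221 CPM in the NK cells of MRX and 625 in those of CTX, or 159 and 174 CPM without mixed cells, and the part of these transcripts in the late maturation ratios was not tested. In Combined against CTX, 6 of 7 late maturation genes lay below 0, beside 38.5% of genes, with a median of -0.16, or 4 of 7 without mixed cells. In combod18t against ctxd18t all 6 did, beside 42.8%, with a median of -0.34, or -0.54 without mixed cells. Of 8 expressed early maturation genes, 5 lay below 0 in CTX against MRX, beside 52% of genes. Tcf7, a factor of early and memory-like lymphocytes, was at 85.8 CPM in MRX and 54.3 in CTX, a ratio of -0.65 (-0.91 to -0.42).

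The transcription factors Eomes and Tbx21 lay within narrow ranges. Eomes was at 377 CPM in MRX, 334 in CTX and 391 in Combined, then 381 in ctxd18t and 404 in combod18t. Tbx21 was at 212, 184, 189, 185 and 159 CPM in the same order. The log2 ratios in Combined against CTX were 0.23 for Eomes (interval 0.13 to 0.32) and 0.04 for Tbx21 (-0.09 to 0.17). Cd27 was at 93.8, 117, 123, 176 and 141 CPM, and Mki67 at 251, 353, 318, 239 and 247 CPM. Cxcr3, the receptor for CXCL9 and CXCL10, was at 8.86, 8.19, 15.1, 14.6 and 8.75 CPM, too low to enter the comparison.

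In the d18 pair, 2 of 20 expressed transcription factors were called lower in combod18t, beside 1.4% of genes, while 12 of the 20 lay above 0, beside 57.2%. Without mixed cells 6 of the 20 lay above 0, and the median went from 0.06 to -0.13. Id2, a repressor needed by innate lymphocytes, was at 963 CPM in MRX, 1301 in CTX and 1376 in Combined, then 1348 in ctxd18t and 615 in combod18t. Its log2 ratio was -1.13 (interval -1.28 to -0.99), and -1.14 without mixed cells. Zeb2, a factor of terminal NK maturation that dendritic cells also express, was at 288 and 84.3 CPM, a ratio of -1.76 (-2.16 to -1.40). Without mixed cells the Zeb2 ratio was -0.90. The integrin gene Itga1, which marks tissue-resident type 1 innate cells, was higher in combod18t, at 247 against 150.5 CPM and a ratio of 0.71 (0.39 to 1.04). It was at 220 CPM in MRX, 167 in CTX and 119 in Combined. On the ILC1 and tissue residency list that holds Itga1, 3 of 5 expressed genes lay below 0 in the d18 pair, beside 42.8% of genes, with a median of -0.15.

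Inpp4b, a lipid phosphatase gene on the ILC1 and tissue residency list, set MRX apart from CTX and Combined. It was at 554 CPM in MRX, 232 in CTX and 238 in Combined, then 340 in ctxd18t and 605 in combod18t. The log2 ratio was -1.25 in CTX against MRX (interval -1.37 to -1.15), -1.21 in Combined against MRX (-1.31 to -1.13) and 0.83 in combod18t against ctxd18t (0.62 to 1.04). In each of these comparisons with MRX, 2 of the 5 expressed genes of the 12-gene list were past -0.5, beside 3.83% of genes in CTX and 4.91% in Combined. Inpp4b was the 1 called member in both, beside 0.35% of genes called lower in CTX and 0.818% in Combined. In combod18t against ctxd18t 2 of 5 expressed genes of the list lay above 0, Inpp4b and Itga1, beside 57.2% of genes, and the median was -0.15. Styk1, a kinase-like gene found in NK cells, had a similar order among the earlier libraries, at 128 CPM in MRX, 49.7 in CTX and 31.9 in Combined. Its ratio in Combined against MRX was -1.98 (-2.24 to -1.78). Cdh1, the adhesion protein E-cadherin that binds KLRG1, was at 53.4 CPM in MRX, 12.6 in CTX and 15.6 in Combined. It was found in 140 of 527 MRX NK cells, and the richest of them held 2.83% of its UMIs.

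Among homing receptors, Ccr2 was called lower in combod18t, at 347 against 776 CPM and a log2 ratio of -1.16 (interval -1.36 to -0.96), beside 1.4% of genes called lower. That call was lost with a Cd3 sum of 0 (-0.94), with cells of 1 receptor UMI added (-0.91) and with cells thinned to 1000 UMIs (-0.96). Ccr2 was at 441 CPM in MRX, 541 in CTX and 459 in Combined. Cd44 was the other homing gene called lower, at -1.09, and was at -0.16 without mixed cells. Ccr7 was called higher, at 1.73, beside 0.856% of 3506 genes, and was at 0.08 when cells with 1 receptor UMI were added. Bcl2, a survival gene, was at 357 CPM in MRX, 216 in CTX and 178 in Combined, then 530 in ctxd18t and 483 in combod18t. Its ratio in Combined against MRX was -1.002 (-1.11 to -0.90).

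Cell cycle genes lay above 0 in CTX and Combined against MRX, and a few S phase genes were called. Rrm2, a subunit of the enzyme that makes deoxynucleotides, was at 38.9 CPM in MRX, 107 in CTX and 112 in Combined, then 68.0 in ctxd18t and 54.7 in combod18t. Its log2 ratio was 1.44 in CTX against MRX (interval 1.20 to 1.72), 1.50 in Combined against MRX (1.29 to 1.77) and 0.07 in Combined against CTX (-0.11 to 0.24). All 16 expressed genes of the 23-gene S phase list lay above 0 in CTX against MRX, beside 48% of genes, with a median of 0.51, and 2 of them were called, beside 0.593% of genes. In Combined against MRX all 17 lay above 0, beside 56.5% of genes, with a median of 0.70, and 3 were called, beside 0.475% of genes. The called genes were Rrm2 and Clspn in CTX, and Rrm2, Tyms and Uhrf1 in Combined. Each reached 50 CPM there and not in MRX, so it entered through the library where it was higher. With a pseudocount of 10 the calls of Clspn in CTX (0.92) and of Tyms (0.99) and Uhrf1 (0.89) in Combined were lost. The 25-gene G2 and M list had all 11 expressed genes above 0 in CTX against MRX and all 8 in Combined against MRX, with medians of 0.60 and 0.50, and none of them was called.

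Between Combined and CTX the S phase median was above 0 and the G2 and M median below 0. In Combined against CTX, 14 of 17 S phase genes lay above 0, beside 61.5% of genes, with a median of 0.23. In the same comparison 9 of 11 G2 and M genes lay below 0, beside 38.5% of genes, with a median of -0.18. The thinned share of cells with at least 3 UMIs was 29.3% in Combined and 26.1% in CTX for the G2 and M list, so the per-cell share did not follow that median. The smallest ratio among them was that of Ube2c, which drives mitotic exit, at -0.76, and the largest S phase ratio was that of Uhrf1, at 0.52. The lists were not compared by a test. In combod18t against ctxd18t, 7 of 8 expressed S phase genes lay above 0, beside 57.2% of genes, with a median of 0.54, and 4 were past 0.5, beside 8.67% of genes. The G2 and M median there was -0.13 over 4 expressed genes.

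Counts per cell gave the share of NK cells with cell cycle transcripts. Thinned to 2000 UMIs, at least 3 UMIs of the S phase list were held by 28.5% of MRX (interval 24.7 to 32.6), 37.3% of CTX (32.8 to 42.0), 41.0% of Combined (37.4 to 44.6), 25.9% of ctxd18t (17.0 to 36.5) and 21.1% of combod18t NK cells (13.2 to 31.0). For the G2 and M list the shares were 14.5%, 26.1%, 29.3%, 12.9% and 11.1%. MRX thus lay below CTX and Combined in both lists, and the intervals of CTX and Combined overlapped, as did those of the d18 pair. Cd3-positive cells had S phase shares of 24.3%, 31.9%, 33.4%, 21.0% and 15.5% in the same order. Thinning left out 1 MRX, 2 CTX and 4 Combined NK cells.

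**Figure D3:**
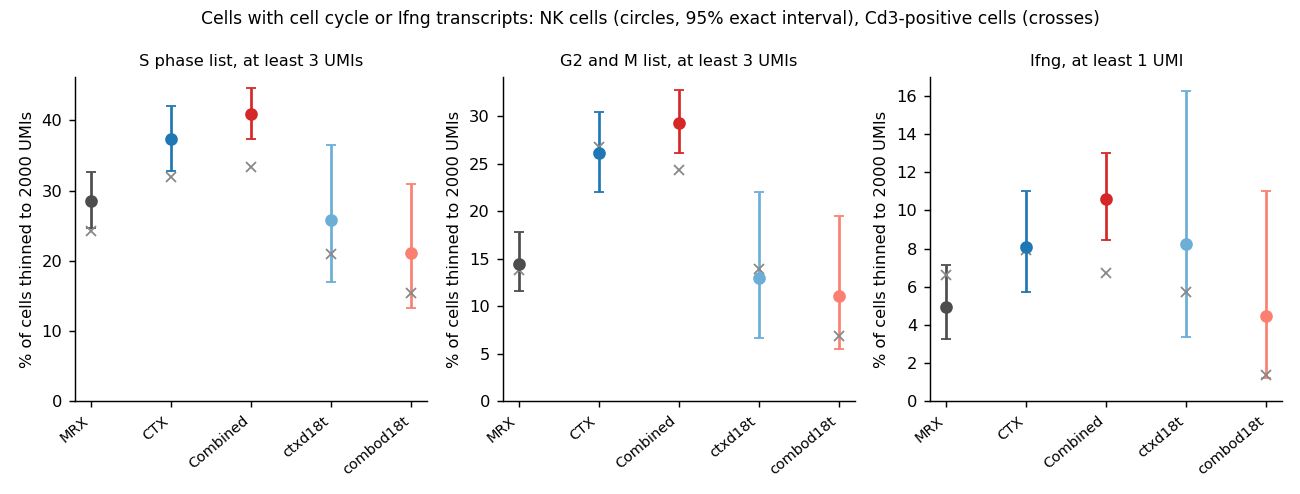
Percentage of cells, thinned to 2000 UMIs, with at least 3 UMIs of the S phase list (left), at least 3 UMIs of the G2 and M list (middle) and at least 1 Ifng UMI (right), for NK cells (circles, 95% exact intervals) and Cd3-positive cells (grey crosses). In the left and middle panels CTX and Combined lie above MRX, and in the right panel Combined is highest, at 10.6%.

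Targets of p53, a factor activated by DNA damage, were among the genes higher in CTX and Combined. Cdkn1a, the cell cycle inhibitor p21, was at 118 CPM in MRX, 248 in CTX and 275 in Combined, then 219 in ctxd18t and 158 in combod18t. Its log2 ratio was 1.06 in CTX against MRX (interval 0.92 to 1.22) and 1.21 in Combined against MRX (1.08 to 1.36). With the cells of highest doublet score left out, the ratio in CTX against MRX was 0.96, so that call was lost. Cd3-positive cells had Cdkn1a ratios of 1.65 and 1.84 in these comparisons. Mdm2, which degrades p53, was at 45.2, 66.3 and 91.6 CPM in MRX, CTX and Combined, and was called higher in Combined than in MRX at 1.00 (0.79 to 1.25). Without mixed cells that ratio was 0.89, with cells thinned to 1000 UMIs 0.81 and with a pseudocount of 10 0.88, so the call was lost. It was lost in most other alternatives too, such as median-of-ratios scaling, at 0.96. Sesn1, a stress-induced p53 target, went the other way in CTX, at 90.1 CPM in MRX, 43.0 in CTX and 69.6 in Combined. Its ratio was -1.05 in CTX against MRX (-1.33 to -0.81), or -0.92 with a pseudocount of 10, where the call was lost. Of the 5 expressed genes of the 20-gene p53 list, 4 lay above 0 in CTX against MRX, beside 48% of genes, with a median of 0.52. In Combined against MRX 4 of 5 did, beside 56.5%, with a median of 0.76, and 2 were called, or 1 without mixed cells, beside 0.475% of genes. In Combined against CTX, all 5 lay above 0, beside 61.5% of genes, with a median of 0.23, and Sesn1 was past 0.5, beside 1.1%.

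Of the type I interferon-response genes, 2 of 8 expressed were called higher in CTX than in MRX, beside 0.593% of genes, and none was called in Combined against CTX. The called genes were Ly6a and Ly6e, and both were at under 0.5 times the level of the other cells of CTX: Ly6a at 161 against 858 CPM and Ly6e at 133 against 1254 CPM. The monocyte and macrophage list was also higher in the NK cells of CTX than of MRX, at 625 and 221 CPM, or 174 and 159 without mixed cells. Without mixed cells the Ly6e ratio was 1.35, against 1.53 with them. Ly6a, Sca-1, was at 19.7 CPM in MRX, 161 in CTX and 86.6 in Combined, then 58.3 in ctxd18t and 42.7 in combod18t. The log2 ratio for CTX against MRX was 2.97 (interval 2.71 to 3.37), or 2.38 without mixed cells, and Cd3-positive cells had a Ly6a ratio of 1.44. Thinned, 1.71% of MRX, 11.5% of CTX and 6.29% of Combined NK cells held a Ly6a UMI, below the 12.2% to 20.9% of B cells, which express the gene. Unthinned, those NK shares were 5.12%, 19.7% and 15.3%. All 8 expressed genes of the 30-gene type I list lay above 0 in CTX against MRX, beside 48% of genes, with a median of 0.90, or 0.66 without mixed cells. In Combined against CTX all 8 lay below 0, beside 38.5% of genes, with a median of -0.35, and 3 were past -0.5, beside 1.98%. Without mixed cells 2 were past -0.5, 1 lay above 0 and the median was -0.21.

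The interferon gamma list was ordered otherwise. In Combined against CTX, 13 of its 15 expressed genes lay above 0, beside 61.5% of genes, with a median of 0.11. In Combined against MRX all 15 did, beside 56.5% of genes, with a median of 0.53, and 8 were past 0.5, beside 5.38%. Gbp5, a guanylate-binding protein of the antimicrobial response, was the called member in CTX against MRX, beside 0.593% of genes, and in Combined against MRX, beside 0.475%. Without mixed cells Socs3, a feedback inhibitor of cytokine signalling, was called in Combined against MRX too, at 1.05. Gbp5 was at 24.6 CPM in MRX, 55.3 in CTX and 64.0 in Combined, then 71.6 in ctxd18t and 48.2 in combod18t. Its ratio was 1.34 in Combined against MRX (interval 1.08 to 1.69) and 1.14 in CTX against MRX (0.83 to 1.51). The call in CTX against MRX was lost with a Cd3 sum of 0, at 0.96, and with a pseudocount of 10, at 0.91. In combod18t against ctxd18t all 13 expressed genes of the list lay below 0, beside 42.8% of genes, with a median of -0.29, and Ifi47 was called, beside 1.4% of genes, at 102 and 48.2 CPM and -1.07 (-1.64 to -0.54). With a pseudocount of 10 the Ifi47 ratio was -0.95, and without its richest cells -0.98, so the call was lost. Without mixed cells 1 of that list lay above 0.

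**Figure D4:**
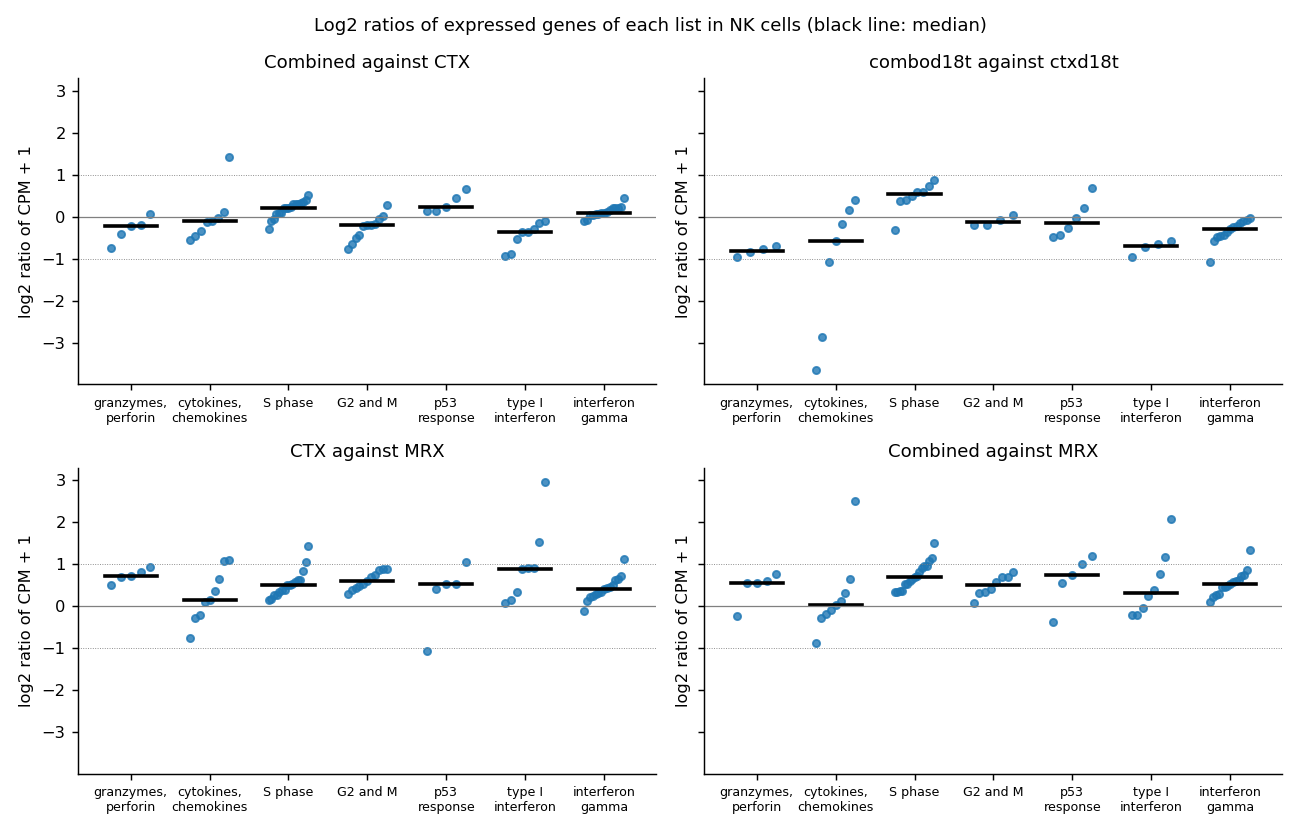
Log2 ratios of CPM + 1 in NK cells for the expressed genes of 7 lists in the 4 comparisons, with 1 point per gene, a black line at each list's median and dotted lines at -1 and 1. In CTX against MRX the granzyme, cell cycle and interferon lists lie mostly above 0, and in combod18t against ctxd18t the granzyme list and the interferon lists lie below 0.

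Growth, glycolysis and stress lists had medians close to that of all genes in Combined against CTX, which was 0.05. The median was -0.02 over 17 growth and ribosome biogenesis genes, 0.00 over 14 glycolysis and hypoxia genes and 0.02 over 7 heat shock genes. Immediate early and activation genes had a median of 0.17 in that comparison, with 16 of 19 above 0, beside 61.5% of genes. Myc, a driver of growth, was at 61.4 CPM in MRX, 47.6 in CTX and 65.8 in Combined, then 76.5 in ctxd18t and 32.8 in combod18t. Its log2 ratio was 0.46 in Combined against CTX (interval 0.22 to 0.72) and -1.20 in combod18t against ctxd18t (-1.90 to -0.57). In the d18 pair Myc had fewer than 100 counts and did not enter the comparison. Hk2, which starts glycolysis, had a ratio of -0.92 in Combined against MRX. Of the 15 expressed glycolysis and hypoxia genes there, 12 lay above 0, beside 56.5% of genes, with a median of 0.13.

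Outside the NK gene lists, the largest differences rested partly on few cells or on mixed cells. Of the 13 genes called lower in Combined than in CTX, 12 were below 0.5 times their level in the other cells of CTX, and most of these were MHC class II and myeloid genes such as Cd74, H2-Aa, Apoe and Il1b. In CTX against MRX, 12 of the 22 genes called higher were below 0.5 times the level of the other cells of CTX. The share of all compared genes below that level was not worked out, so these counts have no background beside them. Lyz2, the lysozyme gene of myeloid cells, had the highest ratio in CTX against MRX, at 2.99, and in Combined against MRX, at 2.72. Without mixed cells these were 0.59 and 0.64. For Combined against CTX without mixed cells, 2 genes were called higher, Ifng and the small GTPase gene Rrad, and 1 lower, Klra5. In MRX a single cell of 47509 UMIs held 99.4% of the Csn3 counts, 99.5% of Wfdc18, 96.8% of Lcn2 and 76.6% of Fabp5. Csn3, Wfdc18 and Lcn2 had the 3 most negative ratios in CTX against MRX and in Combined against MRX, down to -7.18 for Wfdc18. The neutrophil genes S100a9 and S100a8 followed in Combined against MRX, at -5.10 and -4.71, and 1 MRX cell held 95.2% and 96.2% of their counts. Spp1, osteopontin, was spread over more cells: it was at 363 CPM in MRX, 793 in CTX and 562 in Combined, then 184 in ctxd18t and 208 in combod18t. Its ratio in CTX against MRX was 1.12 (interval 1.04 to 1.21), or 0.87 with cells of 1 receptor UMI added, where the call was lost.

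In Combined against MRX, 10 of the 31 genes called lower encode ribosomal proteins, and 76 of the 3792 genes compared were ribosomal protein genes. Rps28 was at 690 CPM in Combined and 1917 in MRX, a log2 ratio of -1.47, and Rps29 at 977 and 2673 CPM, a ratio of -1.45. The other cells of the same libraries had Rps28 at 751 and 2028 CPM and Rps29 at 1074 and 3180 CPM. The difference in these genes was thus of a like size outside NK cells. Its part in the other ratios against MRX was not tested.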

How the data were processed

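Tumours were digested, live CD45+ cells were sorted, and per the labels' protocols the libraries came from a multiplexed 10x 3′ kit and Cell Ranger 9.0.1 gave the counts. The submitters' processing notes name GRCm39 and Seurat 5.2.0, without roles. The deposited matrices hold raw UMI counts per gene and cell barcode, as whole numbers. The RefSeq promoter table is on GRCm38.p6, and no coordinate was carried between builds.

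Cells with at least 200 genes and at most 15% mitochondrial counts were kept (26843 of 27348 barcodes), and NK cells were selected by the stated rule. Counts were summed per library, scaled to CPM and compared as log2 ratios with a pseudocount of 1 CPM. No count model was run, since each label has 1 library. Intervals are exact Poisson for levels, exact binomial (Clopper-Pearson) for shares, Newcombe for differences of shares and exact conditional binomial for ratios, all at 95% and for counting error only. For cell shares, each cell was thinned to 2000 UMIs (4000 for Ly49 genes). On simulated data, a 3-fold change was called in 98% to 100% of seeded genes and a 2-fold change in 36% to 44%, with no unchanged gene called. The simulated counts were Poisson draws from the summed profile of both libraries, with no spread between cells, animals or libraries. They therefore cannot tell how many calls on the real data are false.

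Doublets were not removed. Scrublet's automatic threshold marked under 0.5% of cells in 3 libraries, so it was not used, and an alternative removed its highest 5% of scores instead. Named genes were a fixed set of 13, up to 3 largest ratios of each list, and the 6 highest and 6 lowest ratios of each comparison, leaving out of these ends genes under 0.5 times the level of the other cells, genes of the rule and antigen receptor, mitochondrial, ribosomal and haemoglobin genes. Other genes named from the marker lists, the receptor families and the ribosomal proteins were chosen after their values were seen. The members and lists were chosen with earlier results of these data known. Alternatives changed the rule's thresholds, cell filters, scaling, pseudocount, depth and gene filter. No other genome annotation was used. Analysis used Python 3.11.15, numpy 2.4.6, scipy 1.17.1, pandas 2.3.3 and scanpy 1.11.5.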

Additional observations from a re-analysis of the deposited data

Results flagged for a closer look

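Of 127 named genes measured in both pairs, 15 had log2 ratios of opposite sign, with intervals off 0, between the earlier pair (Combined against CTX) and the d18 pair (combod18t against ctxd18t). The named genes were picked partly for large ratios in these pairs. The share of opposite signs over all compared genes was not worked out, so the 15 have no background beside them. Each pair is 2 libraries, the difference between the pairs was not tested, and day and run cannot be told apart. The directions rest on the d18 labels: ctxd18t has the barcode bases of Combined and combod18t those of CTX, and were these 2 labels exchanged, the signs of all 15 would match between the pairs. This was not tested.

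Ifng, Myc and Gzmc did not reach the level for comparison in the d18 pair, so their d18 values rest on few counts. Camkmt did not reach that level in the earlier pair. A positive ratio in the earlier pair and a negative one on d18 were seen for 12 genes. Transcription and RNA-decay factors among them were Id2 at 0.08 and -1.13, Klf2 at 0.53 and -0.84, and Zfp36 at 0.24 and -1.11. The adhesion receptor Crtam was at 0.29 and -0.93, and without mixed cells its d18 value was -0.14. The p53 targets Cdkn1a and Bax were at 0.15 and -0.47 and at 0.15 and -0.42. The protease inhibitors Serpinb9 and Serpinb6b were at 0.40 and -0.25 and at 0.20 and -0.28, and without mixed cells their d18 values were -0.48 and -0.50. H2-K1, an MHC class I heavy chain, was at 0.25 and -0.21, and the chaperone Hspa8 at 0.20 and -0.22, or -0.12 on d18 without mixed cells. Of the genes with few counts on d18, Ifng was at 1.44 in the earlier pair and -0.83 in the d18 pair, and Myc at 0.46 and -1.20.

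The other 3 had a negative ratio first and a positive one on d18. Gzmc was at -0.73 and 0.90, the integrin Itga1 at -0.48 and 0.71, and the methyltransferase Camkmt at -0.41 and 1.56. In combod18t the richest cell held 68.7% of the Gzmc counts.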

How the results depend on the processing

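No paired analysis was possible because each label has 1 library, and for the same reason none was left out in turn. The direction of the share differences held in every alternative that was run for Combined minus CTX, CTX minus MRX and Combined minus MRX. The d18 difference, 0.046 points, turned negative with a receptor sum of at least 1 (-0.129), without the highest Scrublet scores (-0.034) and with the rule applied at 2000 UMIs (-0.015). The difference Combined minus CTX (11.8 points) was 10.5 with a Cd3 sum of 0, 9.54 with the rule applied at 2000 UMIs and 17.7 among cells with fewer than 2 Cd3 UMIs. In that last denominator combod18t minus ctxd18t was 4.61, CTX minus MRX -8.89 and Combined minus MRX 8.84. CTX minus MRX was -3.60 with the rule applied at 2000 UMIs.

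Counts of called genes moved more. Without mixed cells, Combined against CTX had 2 higher and 1 lower, combod18t against ctxd18t 14 lower, and CTX against MRX 13 higher. With NK cells thinned to 1000 UMIs, Combined against CTX had 5 higher and 4 lower, the d18 pair 3 higher and 8 lower, and CTX against MRX 8 higher. With a receptor sum of at least 1, Combined against CTX had 53 lower, the d18 pair 123 lower and CTX against MRX 34 higher, and with at least 3 the d18 pair had 27 lower. For Combined against CTX, 5 were lower without the highest Scrublet scores, 5 with the mean CPM of cells and 6 with a pseudocount of 10. With that pseudocount Combined against MRX had 9 higher. With no filter on low counts the numbers higher and lower were 135 and 288 in Combined against CTX, 2339 and 1888 in the d18 pair, 379 and 370 in CTX against MRX, and 219 and 387 in Combined against MRX, since genes with few counts then pass.

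Among named genes, 66 calls were made, and 51 to 66 of them were kept under each alternative. The sign turned for Naaa in the d18 pair without mixed cells, at 0.99. In CTX against MRX it turned for Wfdc18, at 0.71 with a Cd3 sum of 0 and 0.66 without its richest cell, and for Fabp5, at 1.00 and 0.31. For Fabp5 in Combined against MRX the values were 0.62 and 0.41. Median-of-ratios scaling moved the median of all genes by at most 0.06. The number of cells was smallest in the d18 pair, at 88 and 90 NK cells.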

Other observations

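In MRX, CTX and Combined, the share of NK cells with Ccl4 or Ccl3 was higher among cells with Ifng than among the rest. In cells thinned to 2000 UMIs, Ccl4 was found in 61.5% of MRX cells with Ifng and 20.0% of those without, in 52.8% and 34.5% in CTX, and in 45.6% and 27.4% in Combined. Ccl3 was found in 13 of the 26 MRX cells with Ifng and 7.40% of the rest, in 9 of 36 and 12.5% in CTX, and in 23 of 79 and 9.88% in Combined. The d18 libraries had 7 and 4 cells with Ifng. In ctxd18t Ccl4 was found in 5 of the 7 and 35.9% of the rest, while in combod18t it was found in 0 of the 4 and 20.9% of the rest. Cells are not replicates, so these shares describe single libraries.

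Ccl5 was lower in NK cells with at least 3 UMIs of either cell cycle list than in the other NK cells of the same library. It was at 1318 and 2592 CPM in MRX, 2375 and 4260 in CTX, 1908 and 3488 in Combined, 4731 and 5086 in ctxd18t, and 1562 and 2669 in combod18t. Gzmb was lower in the cycling cells of MRX, CTX and Combined, at log2 ratios of -0.39, -0.32 and -0.17. It was higher in those of ctxd18t and combod18t, at 0.66 and 1.27, from 30 and 22 cycling cells. Cdkn1a was higher in the cycling cells of Combined, at 326 against 208 CPM, and of CTX, at 277 against 216 CPM, with counting intervals of the ratio above 0. In MRX it was at 121 and 116 CPM, in ctxd18t at 242 and 205 and in combod18t at 191 and 143, with intervals that included 0.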
